A study of Rattus norvegicus with 12 samples.

Results

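Ventricular cardiomyocytes of newborn Wistar rats, kept in culture and given adenovirus carrying mef2Cγ+23/24 (the 23/24 group), were compared with untreated cultures of the same cells (the control). Each group had 3 arrays. The members of the comparison were all probe sets with 1 gene symbol in the probe table, 15209 of the 28826 on the array. Of these, 10570 passed a filter on low values and 4639 did not, and the brightest per symbol gave 10025 tested genes. Cultures of all groups were plated for 44 h and then kept without serum for 24 h. The series also holds 3 arrays of cultures given mef2Cγ+ (the γ+ group) and 3 given mef2Cγ- (the γ- group), which shared the estimate of the spread. The labels do not say what 23/24 denotes. They list no cultures given a virus without an insert, so the effect of the vector and that of its insert cannot be told apart. They number the arrays as biological replicates without saying whether each came from its own cell isolation, and p-values therefore measure the spread between these samples, which may be technical. No probe set carried the symbol Mef2c, and the level of Mef2c or of the transgenes was not analysed here.

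MEF2C is a MADS-box transcription factor that binds A/T-rich sites in the control regions of muscle genes, among them genes of the sarcomere and of the fetal and stress programs of the heart. It recruits coactivators or, together with class IIa histone deacetylases, represses the same genes. Alternative splicing includes or skips its γ segment, which is known to restrain transcriptional activation.

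The labelled cell type was borne out by its markers. All 8 cardiomyocyte markers were tested, with control means of 10.02 to 13.49 log2. Their mean level per array was 11.54 to 11.58 in the control and 11.51 to 11.58 in the 23/24 group. Markers of other cells of the heart were present in both groups. The mean level of 8 fibroblast markers was 9.64 to 9.65 in the control and 9.58 to 9.66 in the 23/24 group. For 4 smooth muscle markers it was 10.75 to 10.79 and 10.71 to 10.80. For 4 of 6 macrophage markers it was 5.68 to 5.75 and 5.66 to 5.73, and Ptprc and Adgre1 did not pass the filter. The 5 tested endothelial markers had a mean level of 6.50 to 6.57 in the control and 6.43 to 6.45 in the 23/24 group, so these arrays did not overlap, and Vwf did not pass the filter. In such bulk cultures fewer cells of a type and less RNA per cell cannot be told apart.

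The 23/24 cultures were close to untreated cultures across the transcriptome. The median difference, 23/24 minus control, was -0.02 log2, and 5% and 95% of genes lay below -0.18 and 0.18. At a mean of at least 8 log2, the 3 largest differences in size were downward, at -0.51 for the placeholder locus LOC366310, which was named after its values were seen, -0.44 for Trappc2l and -0.38 for Snrpg. LOC366310 had the lowest p of all genes and read 8.77, 8.84 and 8.61 in the control and 8.08, 8.21 and 8.40 in the 23/24 group. The largest upward was that of Cdkn1a, the cell cycle inhibitor p21, with a mean of 10.04 in the 23/24 group against 9.67 in the control. At an adjusted p under 0.05 by limma, 0 of 10025 genes (0%) were called, with a lowest adjusted p of 0.209. At an unadjusted p under 0.05 there were 312 higher genes (3.11%) and 587 lower genes (5.86%), together 899. At an unadjusted p under 0.01 there were 233. All 3 arrays of the 23/24 group lay above all 3 control arrays for 571 genes (5.70%) and below them for 1221 (12.2%), and the groups overlapped for 8233. For a single gene, an exact permutation test of 3 arrays against 3 cannot go below p = 0.1. Without the filter, 0 of the 15209 probe sets were called, with a lowest adjusted p of 0.266 by limma and 1304 at an unadjusted p under 0.05.

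Each 95% interval holds for a single gene on the deposited scaling, with a spread shared with the γ+ and γ- arrays. That spread may be technical, as given above, so the intervals may not bound differences between independent cultures. Median centring moved the median over all genes from -0.02 to -0.07 log2. The median standard error of a difference was 0.08 log2 and the 95% interval reached 0.17 to either side at the median. The interval lay inside 0.25 log2 on either side of 0 for 5226 genes (52.13%), inside 0.5 for 9712 (96.88%) and inside 1 for 10022 (99.97%). Differences of at least 0.25 log2 were seen for 198 higher and 157 lower genes, and of at least 0.5 for 4 and 3. The single gene with a difference of at least 1 log2, named after its value was seen, was Kng1, which encodes kininogen. Kng1 read 4.97, 6.50 and 3.86 in the control and 6.50, 5.98 and 6.22 in the 23/24 group. The control arrays spread over more than the difference of 1.12 ± 0.41 (SE, n = 3 per group), and the groups overlapped. Among the settings tried, Kng1 was called only without control replicate 2 (1.82, adjusted p = 0.0181 by limma).

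The direction of small differences depended on the level of the gene. The genes were split by level into 5 groups of 2005. In the group of lowest level (4.78 to 5.84 log2) the median difference was 0.06, and the groups did not overlap for 12.22% of genes in the higher and 4.090% in the lower direction. This group starts at the filter, which took in the 23/24 arrays. Without those arrays 82 tested genes would lie under the filter, 20 of them higher without overlap. Without the control arrays 37 would. The part of the filter in the split of this group was not tested. In the group of middle level (6.83 to 7.68 log2) the median was -0.05, and these shares were 2.494% and 15.71%. In the group of highest level they were 5.536% and 12.92%, with a median of -0.02. This split differed with the scaling of the arrays. Of the genes whose groups did not overlap, 571 of 1792 were higher as deposited, 251 of 1984 after median centring and 728 of 1604 after quantile normalization. Over all genes, median centring made the shares 2.50% higher and 17.3% lower, and quantile normalization 7.26% and 8.74%. Counts of higher and lower members of a gene list without overlap are therefore followed by those after each scaling. The shares of all genes to set beside them are 5.70% and 12.2% as deposited, and those just given after each scaling.

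**Figure D1:**
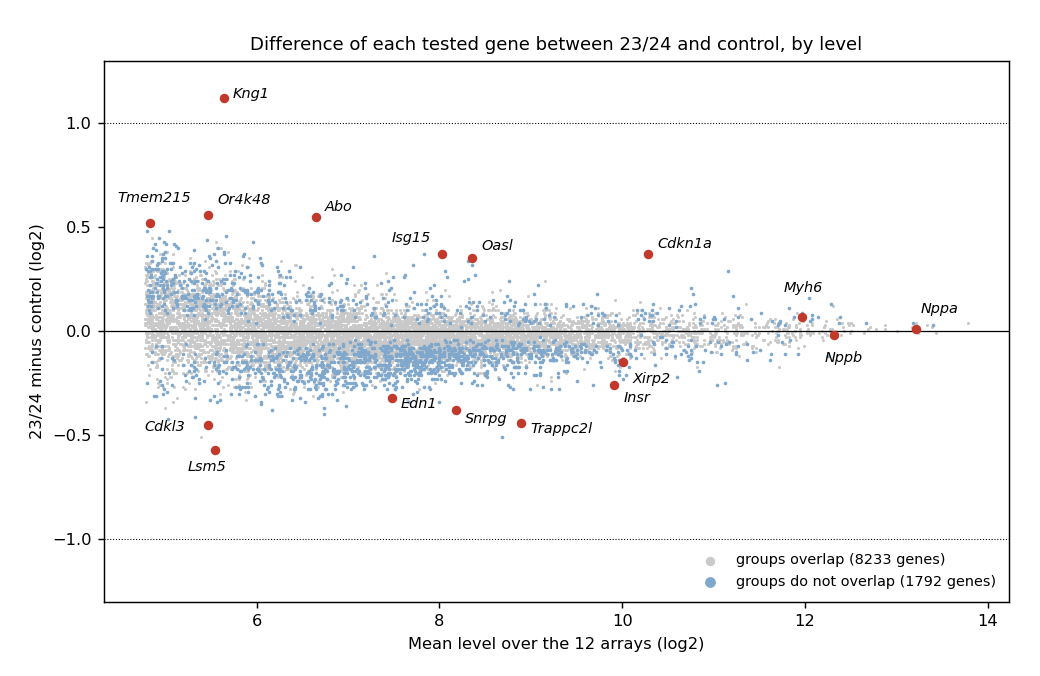
Each dot is 1 of 10025 tested genes, with its mean log2 level over the 12 arrays on the x axis and 23/24 minus control in log2 on the y axis. Blue genes are those whose 3 arrays per group do not overlap (1792), grey genes overlap (8233), red dots are named genes and dotted lines mark 1 log2. Apart from Kng1 no gene reaches 1 log2, and Nppa, Nppb and Myh6 lie close to 0.

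The number of genes called differed with the arrays in the fit and with their weights. With limma's array weights, 68 genes were called higher (0.678%) and 152 lower (1.52%), together 220, and the groups did not overlap for 195 of them. These weights ranged from 0.13 for γ+ replicate 2 to 3.22 for 23/24 replicate 2. Without γ+ replicate 2, 22 genes were called higher (0.219%) and 36 lower (0.359%), and 56 of these 58 were also among the 220, in the same direction. Without all 3 γ+ arrays, a setting chosen after seeing the data, 7 were higher (0.0698%) and 16 lower (0.160%). The 23 genes of that setting were all among the 58. The 7 higher ones were Cdkn1a, Oasl, Abcb1b, Lgals3bp, Tmem215, Gbp5 and Slco5a1. Among the 16 lower ones were Edn1, Egr1, Insr, S100a6, Snrpg, Stx7, Myct1 and LOC366310. The 6 compared arrays alone gave 0 calls, as did leaving out γ+ replicate 1 or 3. The largest difference among the 220 was 0.63 log2 in size.

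Interferon-stimulated genes, which encode antiviral proteins, had a median difference above that of all genes, by a small amount. Of 61 listed genes 49 were tested, with a median, 23/24 minus control, of 0.08 log2 against -0.02 over all genes. The groups did not overlap for 12 members in the higher direction (24.49%, against 5.70% of all genes) and for 0 in the lower. After median centring 5 members were higher and 0 lower without overlap and the list median was 0.03, and after quantile normalization these were 15, 0 and 0.07. The limma fit called 0 of the 49, of which 10 had an unadjusted p under 0.05, all higher. With array weights 8 were called, all higher (16.3%, against 0.678% of all genes): Oasl, Isg15, Gbp5, Lgals3bp, Ifit1, Irf7, Cxcl10 and Mx2. The last 4 of these were named after their values were seen. Mx2 differed by 0.20 ± 0.10 log2 in the main fit, with overlapping groups.

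Oasl encodes an oligoadenylate synthetase-like antiviral protein. Its log2 level was 7.68, 7.68 and 7.67 in the 3 control arrays and 7.91, 8.04 and 8.12 in the 23/24 arrays. All 3 of the latter were higher, by more than the spread within either group. The difference was 0.35 ± 0.06 log2 (SE, n = 3 per group; 95% interval 0.22 to 0.48), a fold of 1.27, with an adjusted p of 0.209 by limma. The adjusted p was 5.5e-04 with array weights, 0.0307 after quantile normalization and 0.0268 without the γ+ arrays. Isg15, a ubiquitin-like modifier, read 7.21, 7.49 and 7.17 in the control against 7.52, 7.70 and 7.75. Its highest control array lay just under the lowest 23/24 array, and the difference was 0.37 ± 0.09. Gbp5, a guanylate-binding protein, read 7.09, 7.01 and 6.91 against 7.33, 7.34 and 7.30, a difference of 0.32 ± 0.06. The secreted glycoprotein Lgals3bp, 1 of the 2 interferon genes of highest level, read 10.60, 10.59 and 10.55 against 10.73, 10.79 and 10.85. Its difference of 0.21 ± 0.05 was called without the γ+ arrays (adjusted p = 0.0415 by limma), as was that of Gbp5 (0.0492). Ifi27 had 10.74 ± 0.03 in the 23/24 group against 10.62 ± 0.05 in the control (SD, n = 3 each), a difference of 0.12 ± 0.09 (SE).

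The promoters of the 4 interferon genes that were called with array weights and hold the interferon-stimulated response element are shown next. They were taken from RefSeq (rat assembly GRCr8) as the 250 bases before the annotated start, on the strand of the gene, with the element in capitals. No promoter is shown for Oasl, Isg15, Ifit1 and Mx2. This does not show that they lack the element, since only 40 of the 49 tested interferon genes had a single promoter entry. The letters searched were GAAANNGAAA on both strands. The regions are chr2:233910749-233910998 on the plus strand for Gbp5, chr14:15988816-15989065 on the plus strand for Cxcl10, chr1:205800024-205800273 on the minus strand for Irf7 and chr10:104127849-104128098 on the minus strand for Lgals3bp.
Gbp5: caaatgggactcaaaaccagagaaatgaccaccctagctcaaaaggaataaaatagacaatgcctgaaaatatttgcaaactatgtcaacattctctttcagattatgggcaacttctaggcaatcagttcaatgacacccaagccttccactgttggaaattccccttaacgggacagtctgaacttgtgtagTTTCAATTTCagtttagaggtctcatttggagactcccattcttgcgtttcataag
Cxcl10: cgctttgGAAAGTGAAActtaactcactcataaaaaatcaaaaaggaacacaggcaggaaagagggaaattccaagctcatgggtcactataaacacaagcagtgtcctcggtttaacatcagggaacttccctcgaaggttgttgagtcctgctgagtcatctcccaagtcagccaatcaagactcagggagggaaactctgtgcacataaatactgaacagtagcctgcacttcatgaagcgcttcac
Irf7: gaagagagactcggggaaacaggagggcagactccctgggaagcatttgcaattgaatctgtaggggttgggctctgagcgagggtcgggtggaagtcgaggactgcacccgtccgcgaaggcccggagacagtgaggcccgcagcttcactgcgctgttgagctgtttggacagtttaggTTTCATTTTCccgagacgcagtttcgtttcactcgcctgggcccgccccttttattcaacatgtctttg
Lgals3bp: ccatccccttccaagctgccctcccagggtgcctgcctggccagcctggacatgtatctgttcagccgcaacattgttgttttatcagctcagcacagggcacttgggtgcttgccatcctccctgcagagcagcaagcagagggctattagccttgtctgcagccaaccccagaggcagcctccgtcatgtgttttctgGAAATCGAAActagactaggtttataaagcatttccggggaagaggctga

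Within 250 bases of the start, these letters were in 3.32% of the 24206 promoters of the table and in 2.72% of the 7942 tested genes with 1 promoter entry. They were in 25 of 40 interferon-list genes (62.5%). The groups did not overlap in the higher direction for 7 of those 25 (28%) and for 13.3% of the other 15. Of the 216 tested genes with the letters, 18 were higher without overlap (8.33%) and 20 lower (9.26%). Those 18 hold the 7 of the interferon list. Among tested genes without the letters these shares were 5.36% and 12.5%. A link between the letters and the differences was not tested. Irf7, a transcription factor of the interferon response, read 7.59, 7.66 and 7.69 in the control and 7.78, 7.92 and 7.93 in the 23/24 group. The chemokine Cxcl10 read 8.25, 8.40 and 8.34 against 8.48, 8.57 and 8.61. In both genes the 23/24 arrays lay above the control, by 0.24 ± 0.07 and 0.22 ± 0.06 log2 (SE). Ifit1, an RNA-binding antiviral protein, differed by 0.31 ± 0.08, from 6.24 ± 0.03 to 6.55 ± 0.11 (SD, n = 3 each).

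For the interferon genes named above, the 23/24 means lay between those of the untreated and the γ+ cultures. Most of them had a low p or a call higher, so a mean above the control followed largely from their choice. Of the 49 members 36 lay above the control and 13 below, against 3976 and 6049 of all genes. Herc6, Rsad2 and Ifit3, named after their values were seen, differed by -0.03, -0.07 and -0.17 in the 23/24 group. In the γ+ group they were 2.88, 2.74 and 1.51 above the control. The γ+ group was higher than the 23/24 group for 44 of 49 interferon genes and lower for 3, with a median of 0.81. Of all genes 28.0% were higher and 37.9% lower in that comparison as deposited, a split that differed with the scaling, as given below. For Oasl it was higher by 1.92 ± 0.06 log2 (adjusted p = 3.0e-13 by limma), for Gbp5 by 1.95 ± 0.06 and for Cxcl10 by 2.24 ± 0.06. The filter took in the γ+ arrays, so members of the list could pass it only through that group. How many did so was not counted. Without the γ+ arrays the means of Oasl, Gbp5 and Cxcl10 would be 7.83, 7.19 and 8.51, above the filter. The γ- group was higher than the 23/24 group for 5 interferon genes and lower for 3, against 4.16% and 3.94% of all genes, with a median of 0.09. Oasl was lower in the γ- group than in the 23/24 group by a difference of -0.24 ± 0.06 (adjusted p = 0.0278 by limma), and Lgals3bp by -0.28 ± 0.05 (adjusted p = 0.00238). For Irf7 that difference was 0.00 ± 0.07 and for Isg15 0.07 ± 0.09. Exactly equal values occurred 30 to 111 times in each of the 15 pairs of control and 23/24 arrays and in 0 of the 45 pairs across other sets. The γ+ and γ- arrays thus appear to have been normalized apart. The part of that step in these differences was not tested. The same holds for every difference of the γ+ or γ- group from the 23/24 or control group in this report.

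**Figure D2:**
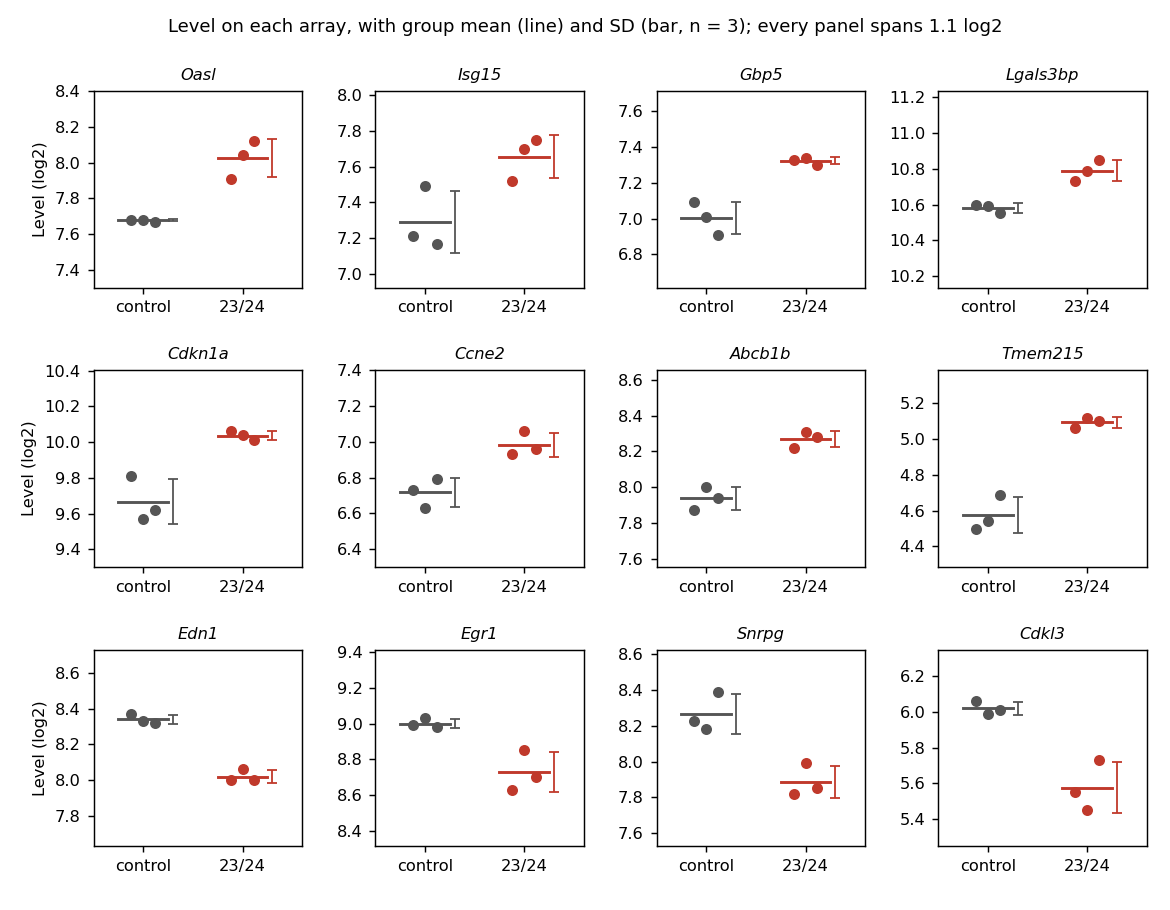
Log2 level (y axis) of 12 genes on each control array (grey) and each 23/24 array (red), with the group mean as a line and the SD as a bar (n = 3). The groups do not overlap in any panel, and the distance between means is 0.21 to 0.52 log2 in size.

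Cdkn1a, which encodes the cyclin-dependent kinase inhibitor p21 and is a target of p53, read 9.81, 9.57 and 9.62 in the control and 10.06, 10.04 and 10.01 in the 23/24 group. The 23/24 arrays were tight and all above the control. The difference was 0.37 ± 0.07 log2 (SE, n = 3 per group; 95% interval 0.22 to 0.52), a fold of 1.29, with an adjusted p of 0.209 by limma, 5.5e-04 with array weights and 0.0160 without the γ+ arrays. Against control, Cdkn1a was 1.54 higher in the γ+ group and 0.53 higher in the γ- group. The γ+ group exceeded the 23/24 group by 1.16 ± 0.07 (adjusted p = 4.0e-10 by limma), and the γ- group differed from it by 0.15 ± 0.07 (0.186). The list of p53 and apoptosis genes had a median of -0.00, against -0.02 over all genes. Of its 37 tested members 0 were called by limma. Without overlap 6 were higher (16.2%, against 5.70% of all genes) and 5 lower (13.5%, against 12.2%). After median centring these were 2 (5.41%, against 2.50%) and 9 (24.3%, against 17.3%). After quantile normalization they were 8 (21.6%, against 7.26%) and 2 (5.41%, against 8.74%).

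With array weights 4 members of that list were called higher (10.8%, against 0.678% of all genes) and 1 lower (against 1.52% of all genes). The higher ones were Cdkn1a, Ccng1, Mdm2 and Tp53inp1, all known p53 targets, and the lower one was Sesn1, a stress-induced regulator of growth signalling that is also one. Mdm2, Tp53inp1 and Sesn1 were named after their values were seen. Ccng1, cyclin G1, read 12.10, 12.07 and 12.08 against 12.20, 12.25 and 12.19, so that all 23/24 arrays were higher, by 0.13 ± 0.06 log2. Mdm2, the ubiquitin ligase of p53, differed by 0.24 ± 0.07 with overlapping groups. Tp53inp1 differed by 0.18 ± 0.06 and Sesn1 by -0.28 ± 0.08. Casp2, a caspase, was among the 10 largest differences downward, at -0.40 ± 0.11, and was not called in the main, array-weighted or reduced fits.

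Differences at genes of the G1/S transition were small and in both directions. Of 43 tested members 6 were higher and 7 lower without overlap (4 and 7 after median centring, 8 and 6 after quantile normalization), with a median of -0.03, and 0 were called. Ccne2, which encodes the S-phase cyclin E2, read 6.73, 6.63 and 6.79 in the control and 6.93, 7.06 and 6.96 in the 23/24 group. All 23/24 arrays were higher, by 0.27 ± 0.07 log2 (fold 1.20, adjusted p = 0.245 by limma). With array weights 4 members were called higher (9.30%, against 0.678% of all genes) and 1 lower (against 1.52%). The higher ones were Ccne2, its paralog Ccne1 (0.25 with weights), the partner kinase Cdk2 (0.23) and the repressor E2f7 (0.30). The last 3 of these were named after their values were seen. In the main fit Ccne1 differed by 0.24 ± 0.07, and E2f7 by 0.22 ± 0.08 with overlapping groups. The lower one called with array weights was Gins1, a subunit of the replicative helicase. It read 5.34, 5.38 and 5.06 in the control against 4.74, 4.85 and 4.96. Cdk2 read 8.21, 8.19 and 8.19 against 8.45, 8.41 and 8.47, and its difference of 0.24 ± 0.08 was also called without γ+ replicate 2 (adjusted p = 0.0275 by limma).

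Of 51 tested members of the G2/M list 1 was higher (1.96%, against 5.70% of all genes) and 3 lower (5.88%, against 12.2%) without overlap. The median was -0.00. Median centring made these 1 and 5. Quantile normalization made them 11 (21.6%, against 7.26% of all genes) and 2 (3.92%, against 8.74%), with a median of 0.04. The higher one as deposited was Ccnf, cyclin F. It had 7.79 ± 0.04 in the 23/24 group against 7.53 ± 0.02 in the control (SD, n = 3 each), a difference of 0.26 ± 0.07 (SE). The γ+ cultures were far from this: they were higher than the 23/24 cultures for 51 of 51 G2/M genes (median 1.26) and for 39 of 43 G1/S genes, with 3 lower (median 1.33). Of all genes 28.0% were higher and 37.9% lower in that comparison. Members of both lists could pass the filter only through the γ+ arrays, and how many did so was not counted. Ccne2 alone was higher by 2.73 ± 0.07 log2 in the γ+ group than in the 23/24 group (adjusted p = 1.5e-14 by limma). Between the γ- and 23/24 groups 3 genes of the G1/S list were called higher and 3 lower in the γ- group. On the G2/M list these were 2 and 1. Of all genes 4.16% were higher and 3.94% lower.

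The contractile genes of the 23/24 cultures stood at the level of untreated cultures. Of 30 tested sarcomere genes 1 was higher (3.33%, against 5.70% of all genes) and 2 lower (6.67%, against 12.2%) without overlap. These were 0 and 4 after median centring and 1 and 2 after quantile normalization. The limma fit called 0, and the median was -0.01 with a range of -0.15 to 0.13. The 95% interval of all 30 lay inside 0.5 log2. Myh6, the α-myosin heavy chain, read 12.25, 12.29 and 12.19 in the control and 12.23, 12.35 and 12.34 in the 23/24 group, a difference of 0.07 (95% interval -0.04 to 0.18). Myh7, the β-myosin heavy chain, read 12.24, 12.21 and 12.05 against 12.03, 12.25 and 12.25, a difference of 0.01 (-0.17 to 0.18). These 2 paralogs are similar in sequence, and their probe sets may not separate them fully. Actc1, the cardiac actin, differed by 0.01 (-0.07 to 0.10) and Acta1, the skeletal actin of the fetal program, by 0.08 (-0.03 to 0.18). The sarcomere gene of lowest p was Ttn, the giant spring protein titin, at 10.97, 10.99 and 10.97 against 10.77, 10.88 and 10.90. The 23/24 arrays of Ttn were all lower, by a difference of -0.13 ± 0.05 (adjusted p = 0.455 by limma).

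In the same cells the γ+ vector gave a different picture. Of the 30 sarcomere genes 29 were called lower and 1 higher in the γ+ than in the 23/24 group, with a median of -1.24. Of all genes 37.9% were lower and 28.0% higher in that comparison. Myh6 was lower by a difference of -1.42 ± 0.05 log2, Myh7 by -1.55 ± 0.08 and Actc1 by -1.24 ± 0.04 (adjusted p = 1.2e-12, 7.0e-11 and 2.5e-13 by limma). Between the γ- and 23/24 groups 0 of the 30 were called, with a median of 0.00, against 4.16% of all genes higher and 3.94% lower. A gene that was not called may still differ.

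Natriuretic peptides, the hormones that stressed cardiomyocytes release, differed as little between 23/24 and control. Nppa read 13.37, 13.39 and 13.30 in the control and 13.37, 13.39 and 13.34 in the 23/24 group, a difference of 0.01 (95% interval -0.08 to 0.11). Nppb read 13.04 on all 3 control arrays and 12.99, 13.02 and 13.03 in the 23/24 group, a difference of -0.02 (-0.15 to 0.11). Both are near the highest value of the tables, 13.89, where an array can compress differences. Against the 23/24 group, the γ+ group was lower by a difference of -0.53 ± 0.05 for Nppa and -2.73 ± 0.06 for Nppb (adjusted p = 2.8e-08 and 8.7e-15 by limma). These are falls away from the highest value. They cannot show whether a rise or a small change at the control level could be measured.

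Of 25 tested fetal and hypertrophic genes 3 were higher and 5 lower without overlap (0 and 4 after median centring, 2 and 4 after quantile normalization), with a median of -0.01. The gene of lowest p was Edn1, which encodes endothelin, a vasoconstrictor and growth factor of cardiomyocytes. Edn1 read 8.37, 8.33 and 8.32 in the control and 8.0, 8.06 and 8.0 in the 23/24 group. The groups were tight and apart, with a difference of -0.32 ± 0.09 log2 (95% interval -0.51 to -0.13; fold 0.80; adjusted p = 0.309 by limma). The adjusted p was 0.0260 with array weights and 0.0268 without the γ+ arrays. Edn1 in the γ+ group was lower than in the 23/24 group by a difference of -2.27 ± 0.09 (adjusted p = 2.6e-12), and in the γ- group by -0.19 ± 0.09 (0.203). Edn1 is also made by endothelial cells, whose markers were also lower as given above, and their part in this difference was not tested.

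The remaining MEF2 family members and their deacetylase partners did not separate the groups by much. Mef2a read 10.29, 10.30 and 10.33 in the control against 10.35, 10.40 and 10.36, a difference of 0.06 (95% interval -0.04 to 0.16). Mef2d differed by -0.03 (-0.30 to 0.24) and Mef2b, near the lower end of the measured range, by 0.20 (-0.08 to 0.48). Of the class IIa histone deacetylases, which bind MEF2 and repress its targets, Hdac4 differed by -0.03 ± 0.08, Hdac5 by -0.12 ± 0.06 and Hdac7 by -0.06 ± 0.08 (SE). Hdac9 was not analysed here.

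Known MEF2 targets were likewise spread around 0. Of 33 tested members 1 was higher (3.03%, against 5.70% of all genes) and 4 lower (12.1%, against 12.2%) without overlap. These were 0 and 5 after median centring and 4 and 3 after quantile normalization. The median was 0.00 as deposited. The intervals of all 33 lay inside 0.5 log2. In the γ+ group 30 were called lower and 2 higher than in the 23/24 group, with a median of -0.96 (37.9% and 28.0% of all genes). In the γ- group 0 were called lower and 2 higher (3.94% and 4.16% of all genes). The member of lowest p was Ppargc1a, the coactivator of mitochondrial biogenesis, which read 8.77, 8.70 and 8.52 in the control and 8.40, 8.46 and 8.53 in the 23/24 group. Its groups overlapped, with a difference of -0.20 ± 0.07 log2 (adjusted p = 0.462 by limma; 0.0318 with array weights). Relative to the 23/24 group, Ppargc1a was lower in the γ+ group (-0.62 ± 0.07, adjusted p = 1.5e-06) and higher in the γ- group (0.50 ± 0.07, 0.00135).

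Xirp2, a MEF2 target whose protein binds actin at intercalated discs, has a MEF2 consensus before its start. It had the largest fall of the listed MEF2 targets in the γ+ group against control, and was named after its values were seen. It read 10.87, 11.05 and 10.98 in the control and 10.76, 10.90 and 10.78 in the 23/24 group, with overlapping groups and a difference of -0.15 ± 0.06 log2. In the γ+ group it was lower than in the 23/24 group by a difference of -3.39 ± 0.06 (adjusted p = 6.2e-16 by limma). The 250 bases before its start (chr3:72533936-72534185, plus strand, GRCr8) follow, with the consensus in capitals.
Xirp2: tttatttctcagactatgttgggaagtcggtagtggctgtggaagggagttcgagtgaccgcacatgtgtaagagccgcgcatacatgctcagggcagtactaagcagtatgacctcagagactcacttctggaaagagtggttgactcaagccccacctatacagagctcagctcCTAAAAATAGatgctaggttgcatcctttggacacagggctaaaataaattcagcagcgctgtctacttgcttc

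The MEF2 consensus, searched by its standard degenerate form on both strands, was in 3.11% of all promoters of the table and in 102 of the 7942 tested genes (1.28%). It was in 4 of the 22 MEF2 targets with a promoter entry (18.2%). Against control the γ+ group differed by -3.54 for Xirp2, -1.03 for Casq2, -1.17 for Myoz2 and -0.87 for Srpk3, which are these 4. Csrp3 and Asb2, listed targets not among them, differed by -2.99 and -2.83. All but Xirp2 are named here after their values were seen. A link between the consensus and the size of the γ+ differences was not tested. The 102 genes had a median difference between 23/24 and control of -0.02, against -0.03 for those without it. Their groups did not overlap in the higher direction for 4.9% and in the lower for 13.7%, against 5.45% and 12.3% of the others. A match describes the letters in this window and is no sign of binding.

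**Figure D3:**
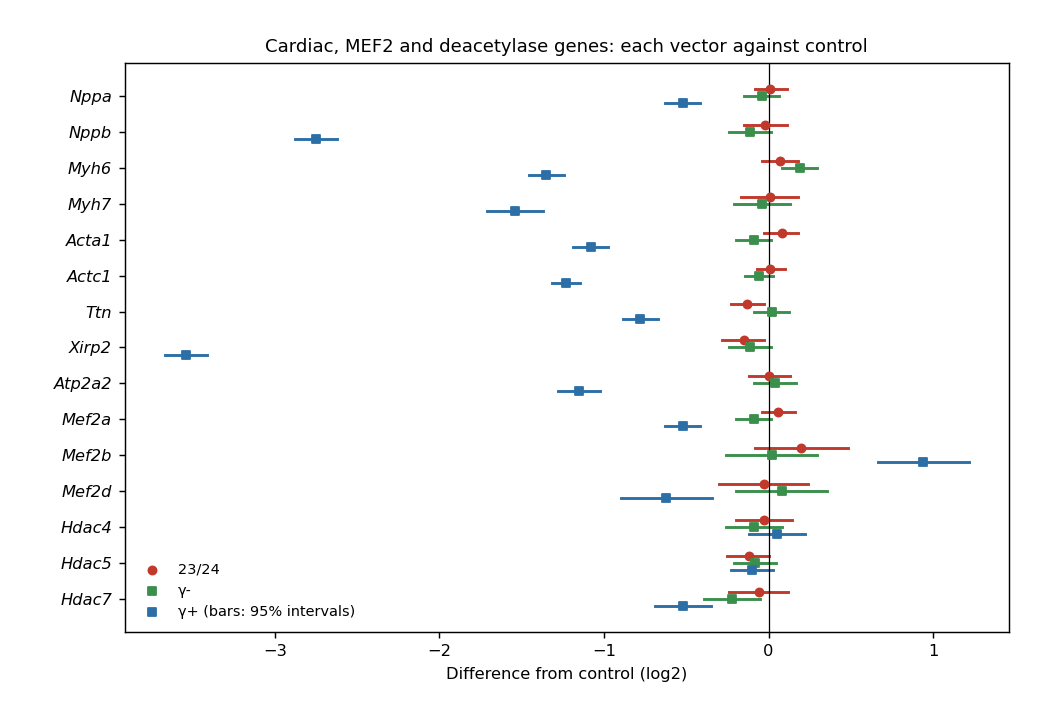
Difference from control in log2 (x axis) for 15 cardiac, MEF2 family and class IIa deacetylase genes (y axis) in the 23/24 (red dots), γ- (green squares) and γ+ (blue squares) groups, each with its 95% interval from limma. The 23/24 values lie between -0.15 (Xirp2) and 0.20 (Mef2b), whereas the γ+ values reach -3.54 for Xirp2 and -2.75 for Nppb.

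Other programs of the cardiomyocyte gave no calls by limma. Of 28 calcium handling genes 2 were higher (7.14%, against 5.70% of all genes) and 5 lower (17.9%, against 12.2%) without overlap. These were 1 and 5 after median centring and 3 and 2 after quantile normalization. Their median was 0.00 as deposited. Atp2a2, the calcium pump of the sarcoplasmic reticulum, read 11.99, 12.01 and 11.99 in the control and 11.95, 12.04 and 12.02 in the 23/24 group, a difference of 0.00 (95% interval -0.12 to 0.13). Of 25 ion channel and transporter genes 2 were higher and 0 lower (1 and 2 after median centring, 3 and 0 after quantile normalization), and their median was -0.03. For 31 cardiac transcription factors the split turned with the scaling, at 4 higher and 4 lower as deposited, 0 and 6 after median centring and 5 and 1 after quantile normalization, beside 5.70% and 12.2% of all genes as deposited.

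Smaller stress and maintenance programs also gave 0 calls by limma. Of 34 autophagy and atrophy genes 4 were higher and 5 lower without overlap (0 and 6 after median centring, 5 and 3 after quantile normalization), with a median of -0.02. Atrial markers had 2 higher and 2 lower of 17 (1 and 3 after median centring, 2 and 2 after quantile normalization), with a median of -0.02. Cholesterol and lipid synthesis genes had 2 and 4 of 29 (0 and 7, then 2 and 3, in the same order of scalings), with a median of -0.03. Genes of the unfolded protein and stress responses had 0 and 2 of 42 (0 and 7, then 0 and 1), with a median of -0.03, and NF-kB inflammation genes 3 and 1 of 28 (1 and 2, then 4 and 0), with a median of 0.01. In each of these lists the counts differed with at least 1 of the scalings. As deposited, their shares without overlap ran from 0.00% to 11.8% higher, against 5.70% of all genes. In the lower direction they ran from 3.57% to 14.7%, against 12.2%.

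In the skeletal muscle program 3 of 16 genes were higher without overlap (18.8%, against 5.70% of all genes) and 0 lower, with a median of 0.06. After median centring 1 was higher and 0 lower with a median of 0.01, and after quantile normalization 2 and 0 with a median of 0.06. The leading one was Myh2, a fast skeletal myosin heavy chain near the lower end of the range, at 4.66, 4.83 and 4.68 against 5.14, 5.15 and 4.90. Its difference was 0.34 ± 0.10 (adjusted p = 0.375 by limma). Myh2 was higher still in the γ- group, by 0.60 log2 over the 23/24 group, but without the γ- arrays its mean of 4.74 would lie under the filter, so that this difference is given without a test.

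Genes of oxidative phosphorylation leaned to lower values. Of 48 oxidative phosphorylation genes 0 were higher and 13 lower without overlap (27.08%, against 12.2% of all genes), with a median of -0.04 and 0 called. After median centring these were 0 and 13 with a median of -0.09, and after quantile normalization 2 and 8 with a median of -0.03. All 48 intervals lay inside 0.5 log2. The gene of lowest p was Ndufa2, a subunit of respiratory complex I, at 7.41, 7.52 and 7.57 in the control against 7.29, 7.22 and 7.31. The 23/24 arrays of Ndufa2 were all lower, by a difference of -0.23 ± 0.07 log2 (adjusted p = 0.411 by limma; 0.0435 with array weights). Of 40 fatty acid oxidation genes 2 were higher (5.00%, against 5.70% of all genes) and 4 lower (10.0%, against 12.2%). These were 0 and 8 after median centring and 3 and 3 after quantile normalization. Pdk4, the kinase that restrains pyruvate oxidation, read 6.34, 6.33 and 6.40 against 6.14, 5.98 and 6.08. Its difference was -0.29 ± 0.07 (adjusted p = 0.236 by limma; 0.0145 with array weights), and it was higher in the γ- than in the 23/24 group by 0.37 ± 0.07 (adjusted p = 0.00583). Glycolytic genes had 5 higher (15.6%, against 5.70% of all genes) and 3 lower (9.38%, against 12.2%) of 32, with a median of 0.04. Median centring made these 2 (6.25%, against 2.50%) and 4 (12.5%, against 17.3%) with a median of -0.01. Quantile normalization made them 10 (31.2%, against 7.26%) and 1 (3.12%, against 8.74%) with a median of 0.04. Insr, the insulin receptor, which was named after its values were seen, read 10.26, 10.20 and 10.37 against 9.97, 10.00 and 10.07. Its difference of -0.26 ± 0.06 was called without the γ+ arrays (adjusted p = 0.0284 by limma).

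Immediate early genes, which respond to serum and stress within minutes, had 3 higher and 7 lower of 35 without overlap, with a median of -0.03. The split was 1 and 11 after median centring and 6 and 6 after quantile normalization. Egr1, a zinc finger transcription factor, read 8.99, 9.03 and 8.98 in the control and 8.63, 8.85 and 8.70 in the 23/24 group. Ier2, a nuclear early response protein, read 6.58, 6.45 and 6.67 against 6.26, 6.34 and 6.27. Both were lower on every 23/24 array, by a difference of -0.28 ± 0.12 and -0.28 ± 0.07 log2. Egr1 was called without the γ+ arrays (adjusted p = 0.0480 by limma) but not with array weights (0.0643), and Ier2 in neither. The matricellular protein Ccn1 differed by -0.15 ± 0.05 and the phosphatase Dusp1 by -0.07 ± 0.06.

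Of 35 ribosome biogenesis genes 0 were called, and 0 were higher and 8 lower without overlap (22.86%, against 12.2% of all genes), with a median of -0.05. Median centring made these 0 and 11 (31.4%, against 17.3% of all genes) and quantile normalization 2 and 5 (14.3% lower, against 8.74%), with medians of -0.10 and -0.01. Nop58, a core protein of small nucleolar ribonucleoproteins, read 9.38, 9.12 and 9.10 in the control against 8.77, 9.02 and 8.97, a difference of -0.28 ± 0.09 log2. Ddx21, a nucleolar RNA helicase, read 9.12, 9.26 and 9.54 against 9.09, 8.95 and 9.05, also -0.28. In both genes the lowest control array lay just above the highest 23/24 array. The γ+ group was higher than the 23/24 group for 33 of the 35 genes and lower for 0, with a median of 0.48. Of all genes 28.0% were higher and 37.9% lower in that comparison. Here too, members that passed the filter only through the γ+ arrays were not counted.

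Snrpg, a core protein of the spliceosomal ribonucleoproteins, read 8.23, 8.18 and 8.39 in the control against 7.82, 7.99 and 7.85. Its arrays were all lower, by a difference of -0.38 ± 0.09 log2 (fold 0.77, adjusted p = 0.215 by limma; 0.0145 with array weights and 0.0268 without the γ+ arrays). Lsm5, a related Sm-like protein, had the largest difference downward of the named genes, with 5.46, 5.75 and 5.93 against 4.91, 5.15 and 5.37. The spread within each group was wide and the difference was -0.57 ± 0.14 (fold 0.67). Both Snrpg and Lsm5 were higher in the γ+ group than in the 23/24 group, by 0.52 ± 0.09 and 0.59 ± 0.14 (adjusted p = 1.0e-04 and 0.00151 by limma).

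Other genes of the largest differences belonged to no common list. Among well-expressed genes, Abcb1b, a drug efflux pump, read 7.87, 8.0 and 7.94 in the control and 8.22, 8.31 and 8.28 in the 23/24 group. Ephx1, the microsomal epoxide hydrolase, read 8.17, 8.13 and 8.31 against 8.47, 8.44 and 8.64, and the transporter Slco5a1 8.38, 8.46 and 8.27 against 8.59, 8.65 and 8.74. All 3 genes were higher on every 23/24 array, by 0.34 ± 0.08, 0.32 ± 0.11 and 0.29 ± 0.11 log2. Abcb1b was called with array weights and without the γ+ arrays (adjusted p = 0.00112 and 0.0268 by limma). It was lower in the γ- group than in the 23/24 group by a difference of -0.37 ± 0.08 (adjusted p = 0.0121) and higher in the γ+ group by 0.87 ± 0.08 (7.1e-08). Slco5a1 was lower in the γ+ group than in the 23/24 group by a difference of -1.87 ± 0.11 (adjusted p = 2.1e-10).

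The largest differences upward were at genes of low level. Or4k48, an olfactory receptor, differed by 0.56 ± 0.13 log2, the blood group glycosyltransferase Abo by 0.55 ± 0.13, Tmem215 by 0.52 ± 0.10, the angiopoietin Angpt4 by 0.48 ± 0.10 and the transcription factor Mesp2 by 0.46 ± 0.10. Of these, Tmem215 had the lowest p, with 4.50, 4.54 and 4.69 in the control, below the filter's 4.78, and 5.06, 5.12 and 5.10 in the 23/24 group. Without the 23/24 arrays its mean of 4.74 would lie under the filter, so Tmem215 was tested only through the group in which it was higher, and the calls of it given above support nothing. All 5 lay in the 2 of those level groups where the share of higher genes was 12.22% and 5.087%, and the part of that shift in them was not tested.

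Downward, Cdkl3, a kinase related to the cyclin-dependent kinases, read 6.06, 5.99 and 6.01 against 5.55, 5.45 and 5.73, a difference of -0.45 ± 0.09 (adjusted p = 0.209 by limma; 0.00341 with array weights). Cdkl3 was lower still in the γ+ and γ- groups than in the 23/24 group, by differences of -0.56 ± 0.09 and -0.31 ± 0.09 (adjusted p = 3.1e-05 and 0.0397). The endosomal syntaxin Stx7 differed by -0.37 ± 0.08 and the trafficking subunit Trappc2l by -0.44 ± 0.18. S100a6, a calcium-binding protein named after its values were seen, had 9.37 ± 0.02 in the 23/24 group against 9.64 ± 0.08 in the control (SD, n = 3 each).

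Among the other cell types, endothelial genes leaned to lower values. Of 24 tested members of the endothelial list 0 were higher and 9 lower without overlap (37.50%, against 12.2% of all genes), with a median of -0.08, and the same 0 and 9 were counted after median centring and after quantile normalization. The limma fit called 0 of them, 3 had an unadjusted p under 0.05, and array weights called 0. Fli1, an ETS factor of endothelial and blood cells, read 6.49, 6.47 and 6.33 in the control against 6.11, 6.20 and 6.18, a difference of -0.27 ± 0.10 log2. Aqp1, a water channel of capillary endothelium, read 9.94, 9.94 and 9.88 against 9.85, 9.84 and 9.87, so its arrays were lower by only -0.07 ± 0.07. Myct1, which was not on the list, had 7.08 ± 0.07 in the 23/24 group against 7.44 ± 0.09 in the control (SD, n = 3 each), a difference called without the γ+ arrays (adjusted p = 0.0376 by limma).

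Fibroblast and matrix genes, smooth muscle genes and macrophage genes had fewer members apart. Of 43 matrix and fibroblast genes 4 were higher (9.30%, against 5.70% of all genes) and 3 lower (6.98%, against 12.2%). These were 0 and 4 after median centring and 4 and 3 after quantile normalization. Their median was -0.01 as deposited. Of 18 smooth muscle genes 2 were higher (11.1%, against 5.70%) and 1 lower (5.56%, against 12.2%), with a median of -0.00. These were 0 and 3, then 1 and 0, in the same order of scalings. Of 16 macrophage or leukocyte genes 0 were higher and 0 lower (0 and 1 after either scaling), with a median of -0.01. Mmp2, the gelatinase of the matrix, was higher on every 23/24 array, at 11.07, 11.08 and 11.15 against 10.90, 10.95 and 10.91, a difference of 0.18 ± 0.07 (adjusted p = 0.0324 with array weights by limma). In the γ+ group 42 of the 43 matrix genes were lower than in the 23/24 group and 1 was higher, with a median of -1.16. Of all genes 37.9% were lower and 28.0% higher in that comparison.

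**Figure D4:**
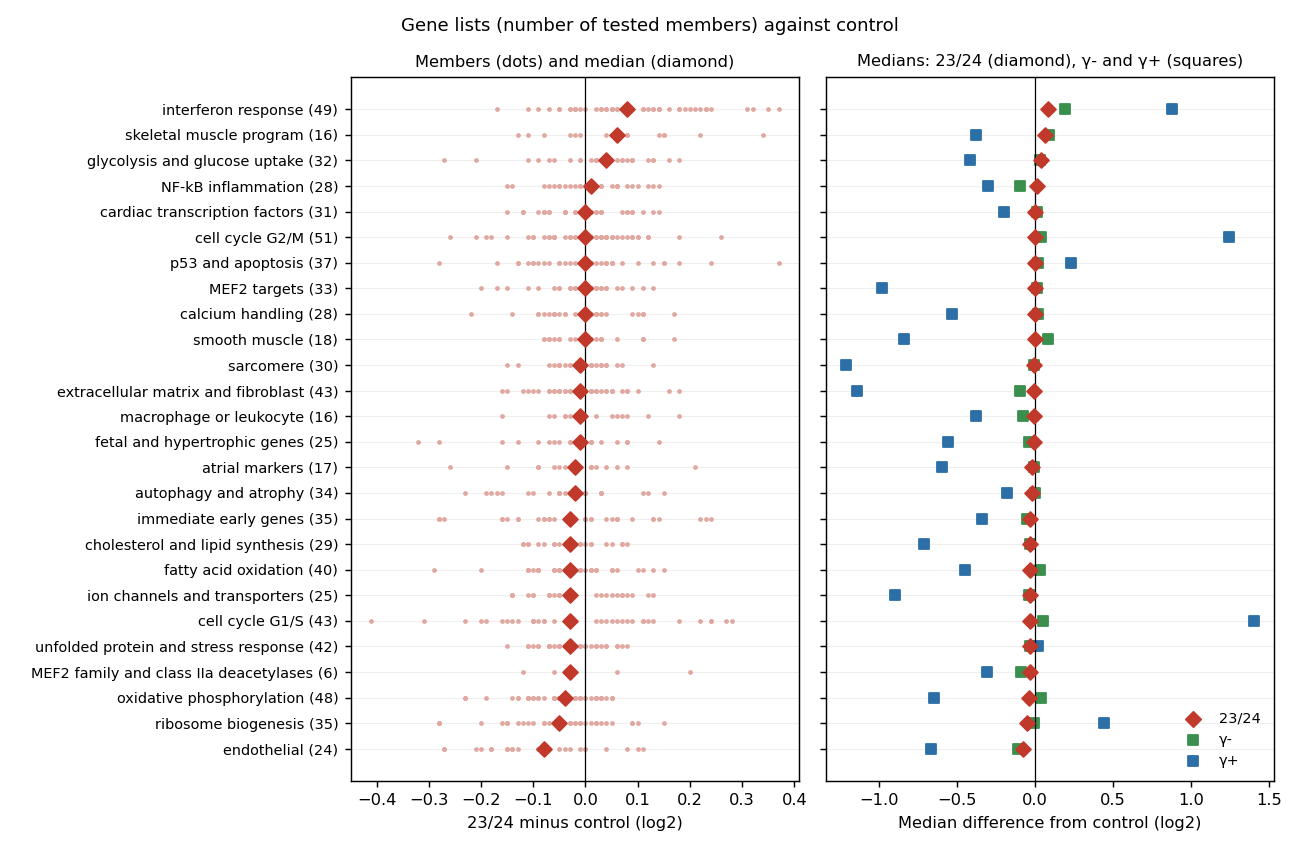
Left, 23/24 minus control in log2 (x axis) for each tested member (dots) and the median (diamond) of 26 gene lists, with the number of members in brackets. Right, the list medians of the 23/24 (diamonds), γ- and γ+ (squares) groups against the same control arrays. The 23/24 medians run from -0.08 (endothelial) to 0.08 (interferon response), and the γ+ medians from -1.21 (sarcomere) to 1.40 (cell cycle G1/S).

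Across all genes, 2804 were higher (28.0%) and 3795 lower (37.9%) in the γ+ than in the 23/24 group at an adjusted p under 0.05 by limma, 902 of them by at least 1 log2. Between the γ- and 23/24 groups 417 were higher (4.16%) and 395 lower (3.94%) in the γ- group, 2 of them by at least 1 log2. These splits by direction are as deposited and differed with the scaling. For γ+ against 23/24, 3703 of 6331 called genes were higher after median centring and 3198 of 6546 after quantile normalization. For γ- against 23/24 these were 698 of 896 and 464 of 894. The median size of a difference was 0.30 log2 for γ+ and 0.10 for γ- against 23/24, and 0.07 for 23/24 against control. As given above, the γ+ and γ- arrays appear to have been normalized apart from the other arrays. Only 23/24 against control thus lies within 1 such set, and the part of that step in the other sizes and counts was not tested. Within the tested genes, differences between 2 arrays had a standard deviation of 0.1271 to 0.1618 log2 in the control and 0.1166 to 0.1642 in the 23/24 group. Between a control array and a 23/24 array it was 0.1329 to 0.1570 for replicates 2 and 3 and 0.1810 to 0.1987 for replicate 1. The 23/24 array labelled replicate 1 thus stood farther from the control than its fellows. Without it, 503 genes had an unadjusted p under 0.05, against 899 with it, and 0 were called in either case.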

How the data were processed

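Gene expression was measured on Affymetrix rat gene arrays, from 2 µg of total RNA per array per the labels' protocols. The values used are the authors' deposited values, 1 table for the 12 arrays, taken as log2: they ran from 1.09 to 13.89, with medians of 5.41 to 5.53 on the 6 arrays compared. MAS5 is named, without a version, in the submitters' processing notes. What was done for summarization, normalization and filtering, and which log base, is not given in the sources used here. The number of arrays limits the precision.

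Of 28826 probe sets, 15209 had 1 gene symbol, 306 several and 13311 none. Symbols were updated through the Entrez identifiers of the RefSeq table of GRCr8, which held 15178 of the 15209. Probe sets at or below the 40th percentile of the mean over all arrays (4.78 log2) were left out, and the brightest probe set stood for each symbol (388 genes had more than 1).

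Differences were fitted with limma 3.58.1 in R 4.3.3 (lmFit with a mean per group over all 12 arrays, then eBayes with an intensity trend, with 8 residual degrees of freedom) and adjusted by Benjamini-Hochberg over the 10025 genes. A gene was called at an adjusted p under 0.05. Alternatives were median centring, quantile normalization, other filters and probe set rules, other variance priors, array weights, a block for the replicate number, a fit of only the 6 compared arrays, and leaving out each array. Genes were named by a rule: fixed MEF2, deacetylase and cardiac genes, the 10 largest differences each way without overlap, the 6 largest each way at a mean of at least 8 log2, the 6 of lowest p, and in each list the 2 of highest level and the 1 of lowest p, with placeholder symbols (LOC, RGD or AABR and digits) passed over. Not all genes so chosen are described, and those named outside the rule are marked. The members, the rule and the 26 gene lists were chosen with earlier results of these data known. Promoters came from the RefSeq table of GRCr8, in which 7942 of the 10025 genes had a single entry.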

Additional observations from a re-analysis of the deposited data

Results flagged for a closer look

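When all 17295 probe sets that passed the filter were tested together, 3 of the 6725 without a single gene symbol differed between the 23/24 and control groups at an adjusted p under 0.05 by limma. They lie outside the gene comparison, and no gene is named for them here. The probe set with the identifier 10812354, which has no symbol, read 10.13, 10.09 and 9.99 in the control and 11.07, 11.11 and 11.12 in the 23/24 group. All 3 arrays were higher, by 1.03 ± 0.05 log2 (SE, n = 3 per group; fold 2.05; adjusted p = 1.9e-07 by limma). Against control, the γ+ group was 1.34 higher and the γ- group 1.63 higher.

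The probe set 10820223, also without a symbol, read 9.66, 9.66 and 9.38 in the control and 10.76, 11.10 and 10.97 in the 23/24 group, a difference of 1.37 ± 0.09 (fold 2.59, adjusted p = 8.6e-06 by limma). The γ+ group lay 1.65 above control and the γ- group 1.74. Both probe sets were thus higher on every array of the 3 virus-treated groups than on any control array. The probe set 10741778, which carries 2 symbols, read 7.51, 7.26 and 7.50 against 8.38, 8.19 and 8.09. Its difference was 0.80 ± 0.10 (fold 1.74, adjusted p = 0.00816 by limma), and against control the γ+ group differed by -0.63 and the γ- group by 0.05.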

How the results depend on the processing

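The count of genes called between 23/24 and control, 0 as reported, was 1 after quantile normalization, 220 with array weights and 0 to 58 when 1 array was left out (58 without γ+ replicate 2, 1 without control replicate 2, otherwise 0). In settings added after the data were seen it was 3 when probe sets with other or no symbols were also tested, 3 when the 6 compared arrays were quantile normalized alone, and 23 without the γ+ arrays. The count at an unadjusted p under 0.05 was 1889 with array weights and 503 to 1465 with 1 array left out. Genes without overlap numbered 1792 to 3350 with 1 array left out, which follows from comparing fewer arrays. Genes called between γ- and 23/24 numbered 1641 without a filter, 488 when probe sets up to the 60th percentile were left out, 2528 when arrays were weighted, 1620 without the γ+ arrays and 263 to 1838 with 1 array left out. The count for γ+ against 23/24 stayed within 1.5 times the reported one in the settings tried, at 6069 to 6859 with 1 array left out. Its split into higher and lower genes differed with the scaling, as given above. The cause of these shifts was not tested.

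Replicate numbers did not pair the samples: the correlation of same-numbered deviations was -0.18, 0.06 and -0.22. With the replicate number as a block 0 genes were called and 818 had an unadjusted p under 0.05.

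Of the named genes, the 7 that changed sign had reported differences near 0. After median centring Nppa, Myh7, Atp2a2 and Actc1 each read -0.04. After quantile normalization Nppb read 0.01, Myh7 and Atp2a2 -0.01 and Actc1 0.00, also when the 6 arrays were normalized alone. Hdac4 read 0.03 with array weights. With 1 array left out the ranges were -0.02 to 0.03 for Nppa, -0.05 to 0.08 for Myh7, -0.02 to 0.03 for Atp2a2, -0.07 to 0.02 for Hdac4 and -0.06 to 0.01 for Mef2d. Since the reported fit called 0 genes, a call of a named gene could only change from not called to called.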
